A study of Homo sapiens with 18 samples.

Results

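The genes described here are 40 genes of DNA replication and S phase, chosen by name for their known roles in origin licensing, helicase activation, DNA synthesis, nucleotide supply and chromatin assembly. Of these, 39 were matched by symbol in the deposited table of 16472 genes, and all 39 were above the filter on low values (at least 1 RPKM, a read count scaled to transcript length and to the depth of the library, in at least 3 libraries), as were 13280 genes in all. UHRF1 was not analysed here. RNA was sequenced from NIKS cells, an established line of immortalized human skin keratinocytes, grown on a feeder layer of irradiated mouse J2/3T3 fibroblasts. The 18 libraries form 6 groups of 3 biological replicates: WT cells (tagged Vec2) and SP100 knockout cells (KO, tagged KO5), each left untreated (0 h) or given human interferon alpha 2a at 25 ng/mL for 12 h or 48 h. SP100 is a protein of PML nuclear bodies and is itself induced by interferon. All libraries of a genotype carry the tag of 1 line, so a difference between genotypes cannot be told apart from a difference between these 2 lines. No group was kept for 12 or 48 h without interferon, so the effect of the treatment and that of hours in culture cannot be told apart.

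Replication is prepared in G1, when the origin recognition complex (ORC), CDC6 and CDT1 load the MCM helicase on DNA, and it starts when CDC45 and the GINS complex turn that helicase into a moving fork. Polymerase alpha with primase lays down primers, polymerases delta and epsilon extend them, and the PCNA clamp, loaded by replication factor C, holds the polymerases on DNA. Many of these genes are transcribed at the entry into S phase under E2F factors, and type I interferon is known as a brake on proliferation in many cell types.

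SP100 was measured first as a check of the labels. Its RNA was at 30.14, 31.91 and 27.9 RPKM in the 3 WT libraries without interferon and at 15.97, 14.22 and 15.21 in those of KO. The 12 h values were 155.5, 172.07 and 150.82 for WT against 93.18, 86.5 and 87.53 for KO, and at 48 h they were 127.09, 123.71 and 131.25 against 59.45, 57.42 and 62.41. The KO libraries were thus lower at each time but not without SP100 RNA. The labels do not say where in the gene the knockout lies, so this RNA level does not check the protein. All 20 genes of a list of interferon-stimulated genes rose at both times in both genotypes. All 10 keratinocyte markers listed were in the table, with summed levels of 14686 to 17718 RPKM per library. Of 10 fibroblast markers, COL1A1, FAP and PDGFRB were in the table and summed to between 5.84 and 8.93 RPKM, and the other 7 were not analysed here. Depth per library is not given in the table; from the steps of low values, relative depths of 0.839 to 1.2 were estimated, a 1.42-fold range. The labels call the replicates biological, and p-values measure the spread between these samples.

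Promoter sequences are shown before the values. The genes were not chosen by the E2F letters in them. They were chosen by roles in S phase, and many such genes are known to be under E2F factors. Their share of E2F letters is therefore not independent of the choice. RefSeq promoters (GRCh38.p14, 250 bases before the start to 50 bases from the start on) were matched for 34 of the 39 genes; CCNE2, GINS4, MCM4, MCM5 and POLD3 had no entry. At least 1 of the E2F letters TTTCCCGC, TTTCGCGC, TTTGGCGC or TTTGCCGC stood on either strand in 18 of the 34 promoters (52.9%), against 1164 of 35116 promoters in the whole table (3.31%). For the listed genes 1 promoter per gene was taken. The whole table was limited neither to 1 promoter per gene nor to the genes tested here, so the 2 sets are not alike. The promoters of 16 mitosis genes held them in 2 cases (12.5%). The CHR letters TTTGAA or TTCGAA, an element known from late cell cycle genes, stood in 2 of the 34 replication promoters (5.88%), in 12 of the 16 mitosis promoters (75%) and in 16.4% of all. CCAAT stood in 55.9% of the replication promoters and 34.6% of all. The core of the interferon-stimulated response element (GAAA, 2 bases of any kind, GAAA) was found in 0 of the 34 windows and in 3.57% of all, which says only that these letters are not in these windows. Below are, for 5 roles, the E2F-bearing promoter whose gene had the biggest change at 12 h in WT, from 100 bases before the start to 30 bases from it, 5' to 3', with the E2F letters in capitals.
CDC6, chr17:40287779-40287908 (plus strand): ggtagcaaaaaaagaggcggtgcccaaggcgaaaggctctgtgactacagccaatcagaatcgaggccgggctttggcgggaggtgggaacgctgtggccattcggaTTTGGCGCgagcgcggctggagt
CLSPN, chr1:35769949-35770078 (minus strand): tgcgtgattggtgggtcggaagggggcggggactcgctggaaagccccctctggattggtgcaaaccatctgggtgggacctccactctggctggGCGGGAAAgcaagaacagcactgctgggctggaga
POLA2, chr11:65261862-65261991 (plus strand): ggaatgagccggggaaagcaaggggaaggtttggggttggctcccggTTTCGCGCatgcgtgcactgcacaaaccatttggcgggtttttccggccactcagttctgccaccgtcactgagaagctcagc
PCNA, chr20:5126593-5126722 (minus strand): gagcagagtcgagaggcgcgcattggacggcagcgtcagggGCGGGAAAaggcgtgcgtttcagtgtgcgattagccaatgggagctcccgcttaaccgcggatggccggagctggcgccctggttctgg
TYMS, chr18:657553-657682 (plus strand): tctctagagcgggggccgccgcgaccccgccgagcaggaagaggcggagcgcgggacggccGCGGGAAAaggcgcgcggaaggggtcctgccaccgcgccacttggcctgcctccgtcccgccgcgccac

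In CDC6 the E2F letters began 7 bases after the start, in CLSPN 5 bases before it, in TYMS 39, in POLA2 53 and in PCNA 59 bases before it. In CLSPN, PCNA and TYMS they read on the opposite strand (GCGGGAAA is the reverse complement of TTTCCCGC). On the deposited scale, genes with and without these letters both rose and fell. At 12 h in WT, 6 of the 18 genes with E2F letters rose and 1 fell (median change 0.12), and 6 of the 16 without them rose and 3 fell (median 0.05). Over all genes tested 15.1% rose and 29.8% fell, with a median change of -0.09. ORC1, MCM10, FEN1 and RRM2, which rose, had none of these letters in the window, and TYMS, which has them, fell. With libraries scaled by the median of ratios 0 of the 39 genes fell at 12 h in WT, and the TYMS change was -0.05 (limma adjusted p = 0.231). The changes ran from -0.14 to 0.64 with the letters and from -0.17 to 0.65 without.

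Across the 39 genes the level was highest at 12 h of interferon and was back near the untreated level at 48 h. The mean log2(RPKM + 1) over the 39 genes was 4.88, 4.92 and 4.88 in the untreated WT libraries, 5.00, 5.04 and 5.01 at 12 h, and 4.94, 4.84 and 4.84 at 48 h. In KO it was 4.87, 4.94 and 4.88 untreated, 5.09, 5.05 and 5.04 at 12 h, and 4.90, 4.86 and 4.83 at 48 h. In each genotype every 12 h library lay above all untreated and all 48 h libraries, which overlapped each other. These are bulk libraries, in which more cells in S phase and more of each RNA per cell cannot be told apart.

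**Figure D1:**
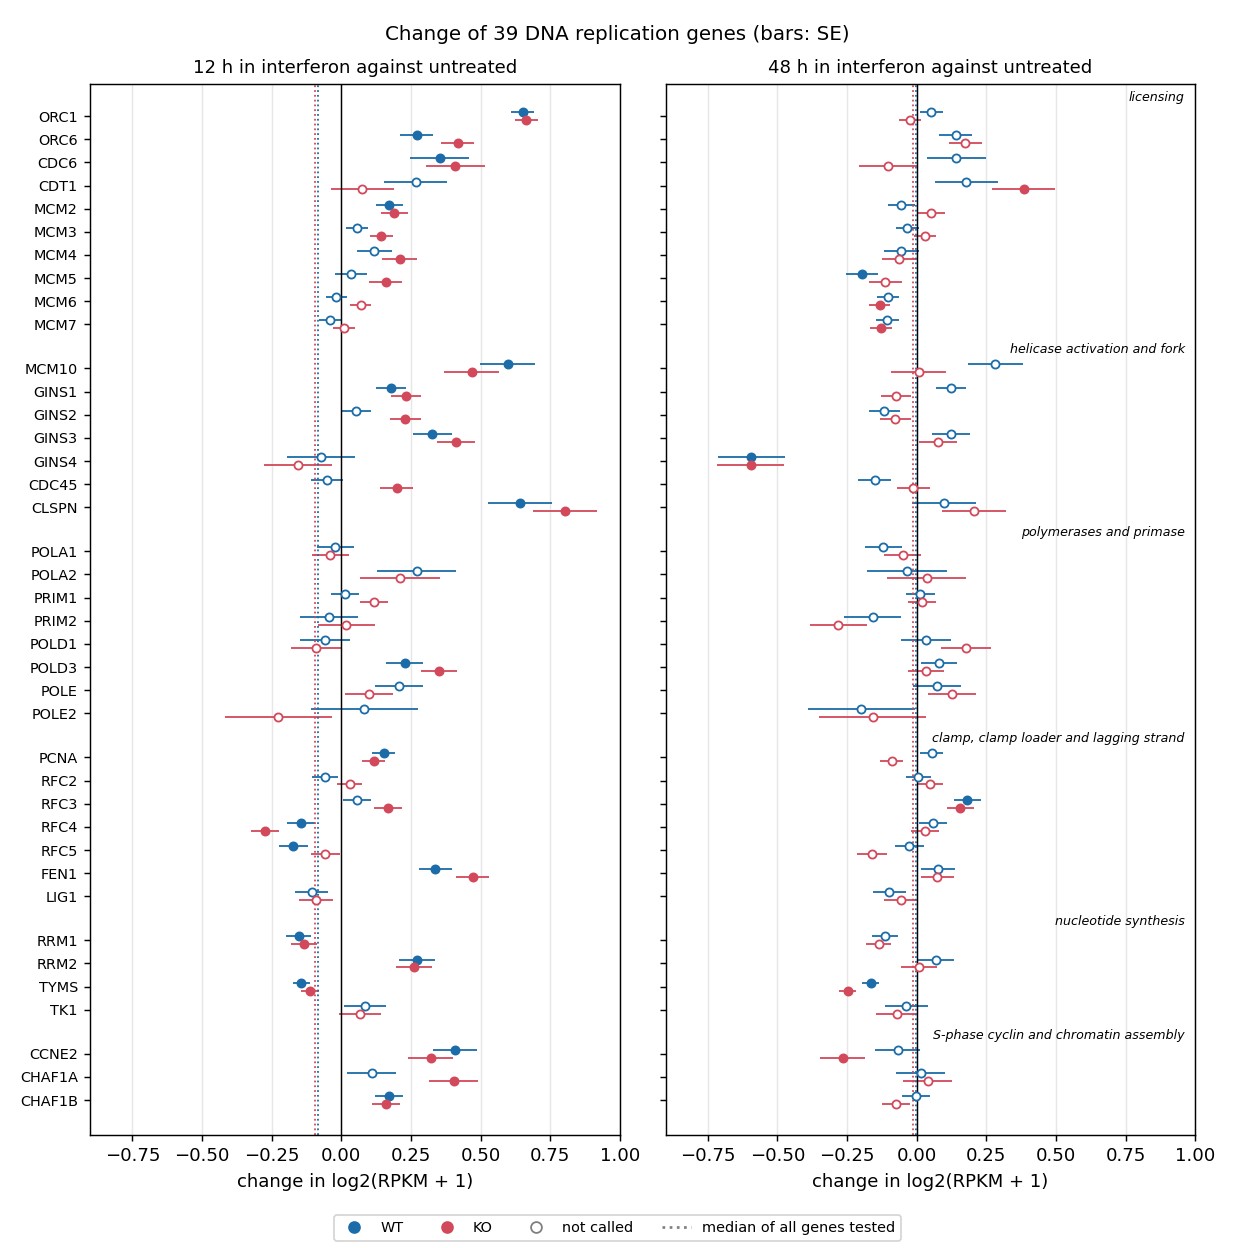
Change in log2(RPKM + 1) against untreated cells for the 39 replication genes, by role, at 12 h (left) and 48 h (right) of interferon. Blue is WT, red is KO, bars are SE, filled points passed limma's test at an adjusted p under 0.05, and dotted lines mark the median of all 13280 genes. At 12 h most filled points lie to the right of 0, with ORC1, MCM10 and CLSPN farthest out, and at 48 h few points are filled, with GINS4 farthest to the left.

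Changes are given as differences in log2(RPKM + 1) with their SE, and a gene is said to have risen or fallen where limma's moderated test gave a Benjamini-Hochberg adjusted p under 0.05 over all 13280 genes. At 12 h in WT, 14 of the 39 genes rose and 4 fell, while over all genes 15.1% rose and 29.8% fell. The median change of the 39 was 0.09, against -0.09 for all genes, and 34 of the 39 lay above the median of all genes. At 12 h in KO, 21 rose and 3 fell, against 16% and 32.8% of all genes, with medians of 0.16 and -0.10. The negative median of all genes moves with how the libraries are scaled. With libraries scaled by the median of ratios, which brings it to 0, all 19 called genes rose in WT (median 0.18, 21.8% of all genes higher and 20.4% lower), and 25 rose and 1 fell in KO (median 0.26, 23.8% and 22.9%).

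Markers of differentiated keratinocytes were also higher in the 12 h libraries. Of 8 tested of 10 listed, 5 rose and 1 fell at 12 h in WT (median 0.37), and the counts in KO were the same (median 0.44), beside 15.1% higher and 29.8% lower of all genes in WT and 16% and 32.8% in KO. With median-of-ratios scaling 5 rose and 0 fell in WT, beside 21.8% and 20.4% of all genes. In KO 5 rose and 1 fell, beside 23.8% and 22.9%. The summed level of these markers per WT library was 156 to 175 RPKM untreated, 194 to 205 at 12 h and 145 to 163 at 48 h. Per KO library it was 133 to 153, 164 to 210 and 156 to 177 RPKM. KRT1 lay at group means of 0.86 to 1.88 RPKM and DSG1 at 0.79 to 1.82; FLG and LOR were not analysed here. The rise was not particular to markers of differentiation. Of the 10 keratinocyte markers named above, 5 rose and 2 fell at 12 h in each genotype (medians 0.14 in WT and 0.12 in KO), beside the same shares of all genes. With median-of-ratios scaling 6 rose and 1 fell in each. The part of either set of markers in the replication gene levels was not tested.

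At 48 h few of the replication genes, as few of all genes, were called against untreated cells. In WT, RFC3 rose and MCM5, GINS4 and TYMS fell, which is 1 and 3 of 39 against 6.52% and 6.3% of all genes. In KO, CDT1 and RFC3 rose and MCM6, MCM7, GINS4, TYMS and CCNE2 fell, which is 2 and 5 of 39 against 5.9% and 7.42%. These counts were near the shares of all genes, with the falls in KO (12.8%) somewhat above theirs. The median changes at 48 h were -0.001 in WT and -0.024 in KO, against -0.003 and -0.012 for all genes. With median-of-ratios scaling MCM5 lost its call in WT, MCM6, MCM7 and CCNE2 lost theirs in KO, and ORC6 was called higher in KO. Between 12 h and 48 h, 13 genes fell and 2 rose in WT, against 11.3% and 24.6% of all genes, and 25 fell and 3 rose in KO, against 14% and 27.7%. The medians of these changes were -0.12 in WT and -0.20 in KO, against 0.07 and 0.08 for all genes. With median-of-ratios scaling all 24 called genes fell in WT, where 18.2% of all genes fell and 16.1% rose. In KO 28 fell and 1 rose, beside 21.2% and 19.1% of all genes. Of the 14 genes that had risen at 12 h in WT, 9 fell again by 48 h, and of the 21 in KO, 20 did. Both comparisons use the same 12 h libraries, so genes picked as high at 12 h lean toward a later fall. The share of all risen genes that fell again was not counted, so these counts are not shown to be particular to replication genes. Without WT 48 h replicate 2 the count of calls from 12 h to 48 h in WT dropped from 15 to 9. The KO count at 48 h against 0 h dropped from 7 to 2 without KO 0 h replicate 1, to 3 without KO 48 h replicate 2 and to 4 without KO 0 h replicate 2, and the WT count dropped from 4 to 2 without WT 48 h replicate 3.

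Among the 10 licensing genes, 4 rose at 12 h in WT (ORC1, ORC6, CDC6 and MCM2) and 7 in KO (also MCM3, MCM4 and MCM5), with median changes of 0.15 and 0.17, beside 15.1% and 16% of all genes. With median-of-ratios scaling 7 and 9 of the 10 rose (medians 0.24 and 0.28), beside 21.8% and 23.8% of all genes. ORC1, the largest subunit of the origin recognition complex, was at 12.46, 11.89 and 11.85 RPKM in untreated WT, 19.42, 19.67 and 19.43 at 12 h, and 12.69, 12.36 and 12.58 at 48 h. In KO it was at 12.39, 12.78 and 12.37 untreated, 20.21, 20.16 and 20.87 at 12 h, and 12.47, 12.58 and 11.83 at 48 h. The 12 h libraries stood well above all others, with replicates close together, and the 48 h libraries overlapped the untreated ones in both genotypes. The rise was 0.65 ± 0.04 in WT (limma adjusted p = 3.51e-09) and 0.66 ± 0.04 in KO (limma adjusted p = 2.61e-09), and ORC1 fell back by 0.60 and 0.69 by 48 h.

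CDC6, which with CDT1 brings the MCM helicase to ORC, was at 25.49, 32.33 and 28.3 RPKM in untreated WT, 35.3, 38.6 and 36.5 at 12 h, and 36.73, 30.86 and 27.9 at 48 h. The KO libraries were at 29.4, 33.87 and 27.69 untreated, 44.12, 36.74 and 40.79 at 12 h and 29.31, 29.8 and 25.35 at 48 h. The 12 h libraries did not overlap the untreated ones, but the first 48 h replicate of WT was as high as those at 12 h. CDC6 rose by 0.35 ± 0.11 in WT (limma adjusted p = 0.013) and by 0.41 ± 0.11 in KO (0.00471); without WT 0 h replicate 1 the WT change was 0.27 with an adjusted p of 0.071. ORC6, a smaller ORC subunit, rose by 0.27 ± 0.06 in WT and 0.42 ± 0.06 in KO.

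CDT1, the partner of CDC6 in loading the helicase, was called at 48 h in KO and, with median-of-ratios scaling, also at 12 h in WT, and no difference between genotypes was called. It was at 11.46, 11.03 and 11.19 RPKM in untreated WT, 17.66, 11.23 and 12.96 at 12 h, and 12.64, 12.64 and 13.21 at 48 h. KO cells had 10.23, 9.14 and 11.92 RPKM untreated, 11.31, 10.55 and 11.09 at 12 h and 13.78, 13.76 and 13.99 at 48 h. In WT only 1 of the 3 libraries at 12 h was clearly higher (change 0.27 ± 0.11, limma adjusted p = 0.0647; 0.36 and 0.0177 with median-of-ratios scaling). In KO the 48 h libraries lay above all other KO libraries, with a rise of 0.38 ± 0.11 against untreated cells (limma adjusted p = 0.0332) and of 0.31 against 12 h (limma adjusted p = 0.0372). The first of these calls was lost in 6 of 25 alternative settings (adjusted p up to 0.14) and the other in 7 (up to 0.128, the value with median-of-ratios scaling).

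The changes of the 6 subunits of the MCM helicase at 12 h ran from -0.04 (MCM7) to 0.17 (MCM2) in WT and from 0.01 (MCM7) to 0.21 (MCM4) in KO. With median-of-ratios scaling they ran from 0.05 (MCM7) to 0.27 (MCM2) in WT, where MCM2, MCM3 and MCM4 were called, and from 0.12 (MCM7, limma adjusted p = 0.0244) to 0.32 (MCM4, limma adjusted p = 0.000901) in KO, where all 6 were. MCM2 rose from 37.2 ± 1.49 to 42 ± 0.77 RPKM in WT (SD, n = 3; change 0.17 ± 0.05, limma adjusted p = 0.00882). MCM4, the most abundant of them at 191 to 257 RPKM over the 18 libraries, rose by 0.21 ± 0.06 in KO at 12 h (limma adjusted p = 0.012), and its WT change was 0.12 ± 0.06 (0.139). MCM5 fell below its untreated level in WT at 48 h, by 0.20 ± 0.06 (limma adjusted p = 0.0354), a call lost in 8 of 25 alternative settings. All 9 licensing genes other than CDT1 fell between 12 h and 48 h in KO, beside 14% of all genes. MCM2, MCM3 and MCM7 lost this call in 4, 7 and 2 of 25 alternative settings.

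Of 7 genes of helicase activation and the moving fork, 4 rose at 12 h in WT and 6 in KO, beside 15.1% and 16% of all genes. With median-of-ratios scaling the counts were the same, beside 21.8% and 23.8% of all genes. CLSPN encodes claspin, a fork protein needed for checkpoint signalling. It was at 10.65, 11.37 and 10.19 RPKM in untreated WT, 17.01, 18.46 and 16.41 at 12 h, and 13.5, 9.95 and 11.42 at 48 h. For KO the values were 9.3, 11.53 and 10.29 untreated, 20.42, 16.65 and 19.48 at 12 h and 14.23, 11.91 and 10.37 at 48 h. The 12 h libraries were above all others in both genotypes. CLSPN rose by 0.64 ± 0.12 in WT (limma adjusted p = 0.000313) and by 0.80 ± 0.12 in KO (limma adjusted p = 3.2e-05), the biggest change of the 39 genes in KO.

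MCM10, which helps to open the helicase at the origin, was at 12.49, 12.34 and 15.1 RPKM in untreated WT, 18.98, 21.57 and 21.29 at 12 h, and 19.64, 14.99 and 14.79 at 48 h. In KO it was at 16.06, 16.36 and 13.87 untreated, 22.55, 21.15 and 21.32 at 12 h, and 15.2, 14.83 and 16.43 at 48 h. In WT the first 48 h replicate was again at the 12 h level. MCM10 rose by 0.60 ± 0.10 in WT (limma adjusted p = 0.00016) and by 0.47 ± 0.10 in KO (limma adjusted p = 0.0011). Its fall from 12 h to 48 h was called in both, by 0.32 in WT (limma adjusted p = 0.021; lost in 5 of 25 settings) and by 0.46 in KO (limma adjusted p = 0.0016).

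Calls differed among the 4 GINS subunits, which act in 1 complex. GINS3, the gene with the lowest mean level of the 39, was at 6.93, 6.53 and 6.47 RPKM in untreated WT, 8.34, 8.83 and 8.58 at 12 h, and 8.03, 6.53 and 7.47 at 48 h. Its KO values were 6.64, 6.94 and 6.81 untreated, 9.73, 9.55 and 8.84 at 12 h and 7.58, 6.65 and 7.45 at 48 h. It rose by 0.33 ± 0.07 in WT (limma adjusted p = 0.00123) and by 0.41 ± 0.07 in KO (limma adjusted p = 0.000149). GINS1 rose by 0.18 ± 0.05 and 0.23 ± 0.05, and GINS2 changed by 0.05 ± 0.06 in WT (0.461) and rose by 0.23 ± 0.06 in KO (limma adjusted p = 0.00262).

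GINS4, singled out after its values were seen, was lower at 48 h. It was at 17.42, 22.2 and 17.02 RPKM in untreated WT, 16.2, 18.84 and 18.43 at 12 h, and 13.49, 10.83 and 12.08 at 48 h. The KO libraries were at 17.17, 20.15 and 16.06 untreated, 17.17, 15.03 and 15.29 at 12 h and 10.78, 13.66 and 10 at 48 h. All 48 h libraries of both genotypes were below all their untreated and 12 h libraries. The fall at 48 h was 0.59 ± 0.12 in WT (limma adjusted p = 0.00343) and 0.60 ± 0.12 in KO (limma adjusted p = 0.0033), and both calls held in all 25 alternative settings. GINS4 exons overlap AC009630.1 and AC009630.2 on the other strand in GENCODE 29, and whether reads were counted by strand is not given in the sources used here.

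**Figure D2:**
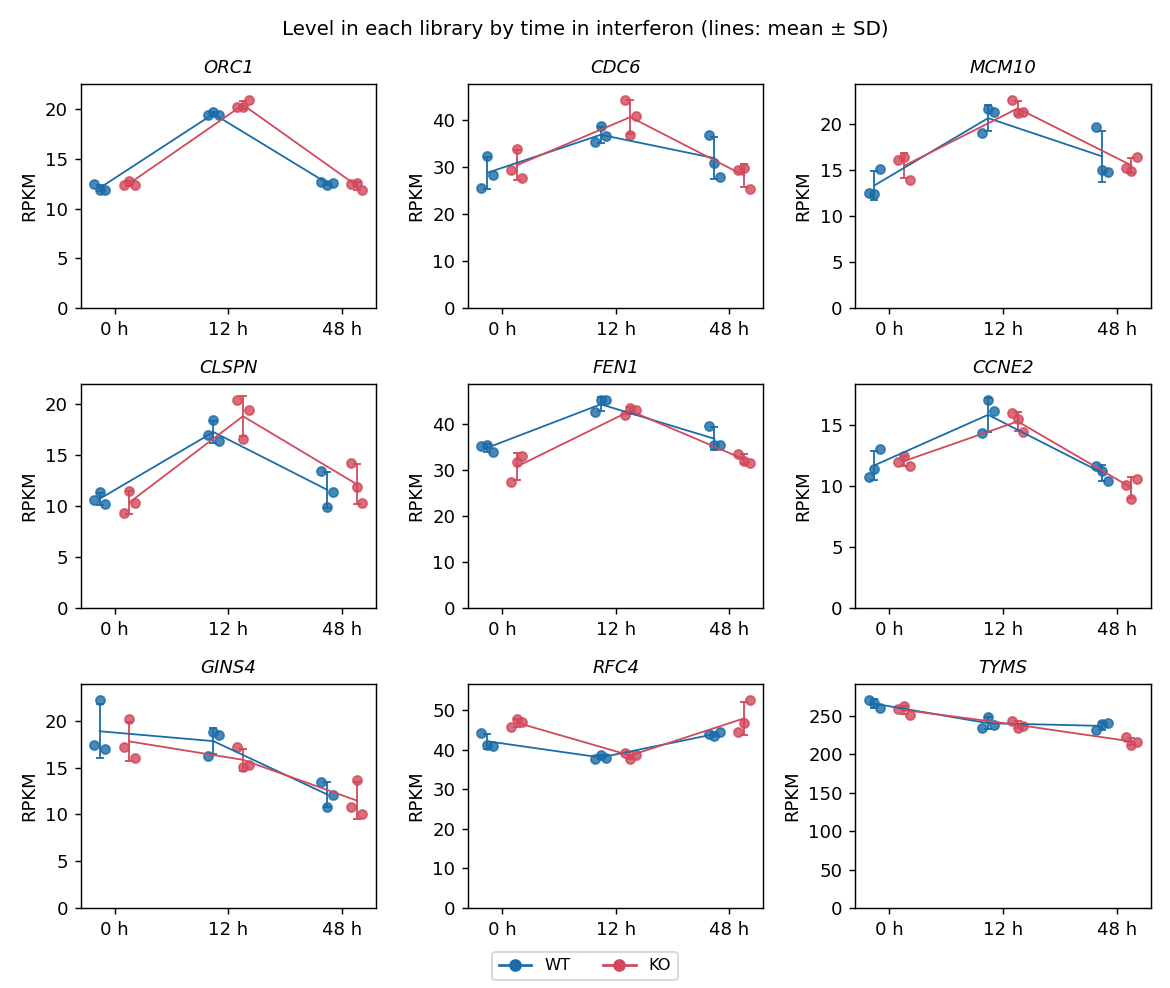
RPKM in each of the 18 libraries for 9 genes by time in interferon, with blue for WT and red for KO, 1 point per library, and lines with bars for the mean and SD of 3 libraries. ORC1, CDC6, MCM10, CLSPN, FEN1 and CCNE2 peak at 12 h, RFC4 is lowest at 12 h, and GINS4 and TYMS are lowest at 48 h. Each vertical axis starts at 0.

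Of the 8 genes of polymerases and primase, 1 (12.5%) rose at 12 h, the same in both genotypes, with median changes of 0.05 in WT and 0.06 in KO. This was near the share of all genes, 15.1% in WT and 16% in KO. With median-of-ratios scaling 2 rose in each, POLD3 and POLE in WT and POLD3 and PRIM1 in KO (medians 0.14 and 0.16). The scaled shares of all genes were 21.8% and 23.8%, so these counts were near them too. POLD3 is an accessory subunit of polymerase delta. It was at 12, 12.32 and 11.88 RPKM in untreated WT, 13.3, 14.34 and 15.3 at 12 h, and 12.33, 12.96 and 13.13 at 48 h. KO cells had 11.73, 11.95 and 11.15 RPKM untreated, 14.24, 16.6 and 14.51 at 12 h and 12.82, 11.31 and 11.61 at 48 h. It rose by 0.23 ± 0.07 in WT (limma adjusted p = 0.01; 0.0541 without WT 12 h replicate 3) and by 0.35 ± 0.07 in KO (limma adjusted p = 0.000349).

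POLA2, the B subunit of polymerase alpha, was at 22.5, 22.57 and 22.1 RPKM in untreated WT, 28.79, 26.33 and 26.62 at 12 h, and 27.78, 22.17 and 16.83 at 48 h. For KO the values were 18.93, 26.25 and 24.18 untreated, 31, 24.24 and 25.25 at 12 h and 24.37, 24.7 and 21.59 at 48 h. The WT libraries at 12 h were above the untreated ones, but the replicates of the other groups spread widely, and the change of 0.27 ± 0.14 in WT did not pass (limma adjusted p = 0.133). POLD1, the catalytic subunit of polymerase delta, was at 23.89, 23.8 and 27.7 RPKM in untreated KO, 22.5, 27.85 and 20.67 at 12 h, and 28.01, 29.19 and 28.16 at 48 h. It rose between 12 h and 48 h in KO by 0.27 ± 0.09 (limma adjusted p = 0.026; lost in 6 of 25 settings), while in WT, at 25.84, 25.93 and 24.93, then 26.04, 22.44 and 25.18, then 24.09, 26.9 and 27.63, the change was 0.09 ± 0.09. On the deposited scale POLA1, POLA2, PRIM1, POLE and POLE2 passed in no comparison, and neither did LIG1 and TK1 of other roles. With median-of-ratios scaling POLE was called at 12 h in WT (0.30, limma adjusted p = 0.0103) and PRIM1 in KO (0.22, limma adjusted p = 0.00243). From 12 h to 48 h the scaled fit also called falls of POLA2 in WT (-0.39, limma adjusted p = 0.0458), of PRIM1 in KO (-0.19, 0.00896) and of TK1 in WT (-0.21, 0.0445) and KO (-0.23, 0.0252), while POLA1, POLE2 and LIG1 were not called. POLE2 had the widest error, with an SE of 0.19.

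Among the 7 genes of the clamp, its loader and lagging-strand processing, 2 rose and 2 fell at 12 h in WT on the deposited scale. In KO 3 rose and 1 fell. Over all genes 15.1% rose and 29.8% fell in WT, and 16% and 32.8% in KO. The falls in WT (28.6%) were thus near the share of all genes, and that in KO (14.3%) was below it. With median-of-ratios scaling 3 rose and 0 fell in WT, beside 21.8% and 20.4% of all genes. In KO 4 rose and 1 fell, beside 23.8% and 22.9%. FEN1, the flap endonuclease that trims Okazaki fragments, was at 35.25, 35.39 and 33.88 RPKM in untreated WT, 42.59, 45.2 and 45.15 at 12 h, and 39.7, 35.37 and 35.39 at 48 h. In KO it was at 27.52, 31.77 and 32.97 untreated, 42.01, 43.51 and 43.17 at 12 h, and 33.55, 31.93 and 31.58 at 48 h. All 12 h libraries were above all others. FEN1 rose by 0.34 ± 0.06 in WT (limma adjusted p = 0.000268) and by 0.47 ± 0.06 in KO (limma adjusted p = 9.55e-06). PCNA, the clamp, rose by 0.15 ± 0.04 in WT and 0.12 ± 0.04 in KO, from 201 ± 8.62 and 204 ± 8.07 RPKM (SD, n = 3); the KO call was lost in 6 of 25 settings.

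The replication factor C subunits, which together load PCNA, split. RFC4 was at 44.32, 41.2 and 41.03 RPKM in untreated WT, 37.67, 38.64 and 37.92 at 12 h, and 44.07, 43.48 and 44.42 at 48 h. The KO libraries were at 45.84, 47.85 and 47 untreated, 39.29, 37.68 and 38.77 at 12 h and 44.54, 46.79 and 52.57 at 48 h. The 12 h libraries were the lowest in both genotypes. It fell by 0.14 ± 0.05 in WT (limma adjusted p = 0.028) and by 0.27 ± 0.05 in KO (limma adjusted p = 0.000283), and rose again by 0.20 and 0.30 by 48 h; scaled by the median of ratios, the WT rise was 0.12 (limma adjusted p = 0.0822). With median-of-ratios scaling the WT change was -0.05 ± 0.05 (0.456) and the KO change -0.17 ± 0.05 (0.0112). The WT fall also lost its call without WT 0 h replicate 1, WT 12 h replicate 1 or WT 12 h replicate 3.

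RFC5 was at 24.73, 22.29 and 23.88 RPKM in untreated WT, 20.84, 22.19 and 19.59 at 12 h, and 22.87, 23.23 and 23.4 at 48 h. KO cells had 24.54, 23.14 and 23.37 RPKM untreated, 24.14, 21.65 and 22.46 at 12 h and 21.46, 20.96 and 20.8 at 48 h. Only the WT fall at 12 h passed among its changes against untreated cells (-0.17 ± 0.05, limma adjusted p = 0.0146), and with median-of-ratios scaling it was -0.08 (0.24). RFC3 was higher at 48 h: it was at 27.81, 27.75 and 25.68 RPKM in untreated WT, 28.65, 27.79 and 28.13 at 12 h, and 31.19, 30.14 and 31.16 at 48 h. For KO the values were 26.1, 27.85 and 25.88 untreated, 31.12, 30.22 and 28.72 at 12 h and 31.82, 29.06 and 28.48 at 48 h. It rose at 48 h by 0.18 ± 0.05 in WT (limma adjusted p = 0.0221; lost in 4 of 25 settings) and by 0.16 ± 0.05 in KO (limma adjusted p = 0.0467; lost in 16).

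The 4 genes of nucleotide synthesis also divided on the deposited scale, where 1 rose and 2 fell at 12 h in each genotype. Over all genes 15.1% rose and 29.8% fell in WT, and 16% and 32.8% in KO. With median-of-ratios scaling RRM2 alone was called at 12 h. RRM2, the small subunit of ribonucleotide reductase that is made in S phase, was at 103.64, 102.63 and 89.44 RPKM in untreated WT, 121.85, 118.29 and 116.95 at 12 h, and 99.88, 100.72 and 109.32 at 48 h. In KO it was at 96.79, 105.38 and 99.83 untreated, 128.67, 117.32 and 117 at 12 h, and 109.03, 92.73 and 102.64 at 48 h. It rose by 0.27 ± 0.07 in WT (limma adjusted p = 0.00291) and by 0.26 ± 0.07 in KO (limma adjusted p = 0.00339). RRM1, the large subunit, was at 83.99, 83.66 and 85.71 RPKM in untreated WT, 74.99, 79.04 and 73.64 at 12 h, and 77.19, 76.65 and 80.31 at 48 h. The KO libraries were at 87.7, 92.12 and 80.86 untreated, 79.25, 77.22 and 80.52 at 12 h and 82.16, 75.45 and 78.92 at 48 h. It fell at 12 h by 0.15 ± 0.05 in WT (limma adjusted p = 0.0126) and by 0.13 ± 0.05 in KO (limma adjusted p = 0.0235), so the subunits of 1 enzyme moved in opposite directions on this scale. With median-of-ratios scaling RRM1 changed by -0.06 (0.339) and -0.03 (0.664), and neither call was kept. The WT call was also lost without WT 12 h replicate 3, and the KO call without KO 0 h replicate 1 or 2 or KO 12 h replicate 2.

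TYMS, thymidylate synthase and the gene with the highest mean level of the 39, was at 270.7, 267.62 and 260 RPKM in untreated WT, 234.51, 249.06 and 238.59 at 12 h, and 231.49, 239.51 and 240.57 at 48 h. KO cells had 259.03, 262.69 and 251.93 RPKM untreated, 243.34, 234.67 and 237.53 at 12 h and 222.39, 212.86 and 215.58 at 48 h. All interferon-treated libraries were below the untreated ones of their genotype. It fell at 12 h by 0.14 ± 0.03 in WT (limma adjusted p = 0.00153) and by 0.11 ± 0.03 in KO (limma adjusted p = 0.00784), and at 48 h by 0.17 ± 0.03 and 0.25 ± 0.03 (limma adjusted p = 0.00207 and 4.08e-05). Only the 48 h falls were kept with median-of-ratios scaling, where the 12 h changes were -0.05 (0.231) in WT and -0.01 (0.925) in KO. TYMS shares exon sequence with ENOSF1 on the other strand and has 2 named pseudogenes in GENCODE 29, so its level is uncertain to that extent.

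CCNE2, cyclin E2, which with CDK2 drives entry into S phase, was at 10.7, 11.37 and 13.02 RPKM in untreated WT, 14.32, 17.03 and 16.15 at 12 h, and 11.68, 11.2 and 10.39 at 48 h. For KO the values were 11.95, 12.48 and 11.68 untreated, 15.98, 15.5 and 14.4 at 12 h and 10.11, 8.91 and 10.56 at 48 h. It rose by 0.41 ± 0.08 in WT (limma adjusted p = 0.000659) and by 0.32 ± 0.08 in KO (limma adjusted p = 0.00353) and fell back by 0.48 and 0.59. In KO the 48 h libraries were all below the untreated ones (-0.27 ± 0.08, limma adjusted p = 0.0377; lost in 8 of 25 settings).

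CHAF1B, a subunit of the chromatin assembly factor that deposits histones behind the fork, was at 15.21, 14.53 and 14.42 RPKM in untreated WT, 16.76, 17.38 and 15.96 at 12 h, and 14.01, 14.8 and 15.33 at 48 h. In KO it was at 14.82, 15.38 and 15.22 untreated, 17, 17.2 and 16.87 at 12 h, and 15.31, 14.07 and 13.67 at 48 h. It rose by 0.17 ± 0.05 in WT (limma adjusted p = 0.0117; 0.0542 without WT 12 h replicate 2) and by 0.16 ± 0.05 in KO (limma adjusted p = 0.0158; 0.0552 without KO 0 h replicate 1). Its partner CHAF1A, singled out after its values were seen, was at 19.29, 23.57 and 23.44 RPKM in untreated WT, 22.63, 24.6 and 24.32 at 12 h, and 25.05, 22.13 and 19.8 at 48 h. The KO libraries were at 19.57, 20.81 and 19.34 untreated, 25.76, 27.17 and 27.07 at 12 h, and 21.85, 21.5 and 18.25 at 48 h. The groups overlapped in WT, while in KO the 12 h libraries were above all others. CHAF1A changed by 0.11 ± 0.09 in WT (limma adjusted p = 0.331) and rose by 0.40 ± 0.09 in KO (limma adjusted p = 0.00126).

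Of the 14 rises at 12 h in WT, 10 held in all 25 alternative settings (ORC1, ORC6, MCM2, MCM10, GINS3, CLSPN, PCNA, FEN1, RRM2 and CCNE2), and of the 21 in KO, 16 did. CDC45, MCM4, MCM5, PCNA and CHAF1B were the 5 that did not in KO. All 14 genes that rose in WT also rose in KO, and the 7 called in KO alone were MCM3, MCM4, MCM5, GINS2, CDC45, RFC3 and CHAF1A. How many of all genes that rose in WT also rose in KO was not counted, so this overlap is not shown to be particular to these genes. With median-of-ratios scaling MCM3, MCM4 and RFC3 were called in WT as well (limma adjusted p = 0.00911, 0.0145 and 0.0199). The exons of 19 of the 39 genes overlap another gene in GENCODE 29, 6 of them on the same strand, among them FEN1 with FADS2 and CHAF1B with MORC3. Pseudogenes carry the names of PCNA, RFC3, RFC5, FEN1, RRM2 and TYMS, so that the split of reads between gene and copy is uncertain for these 6.

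**Figure D3:**
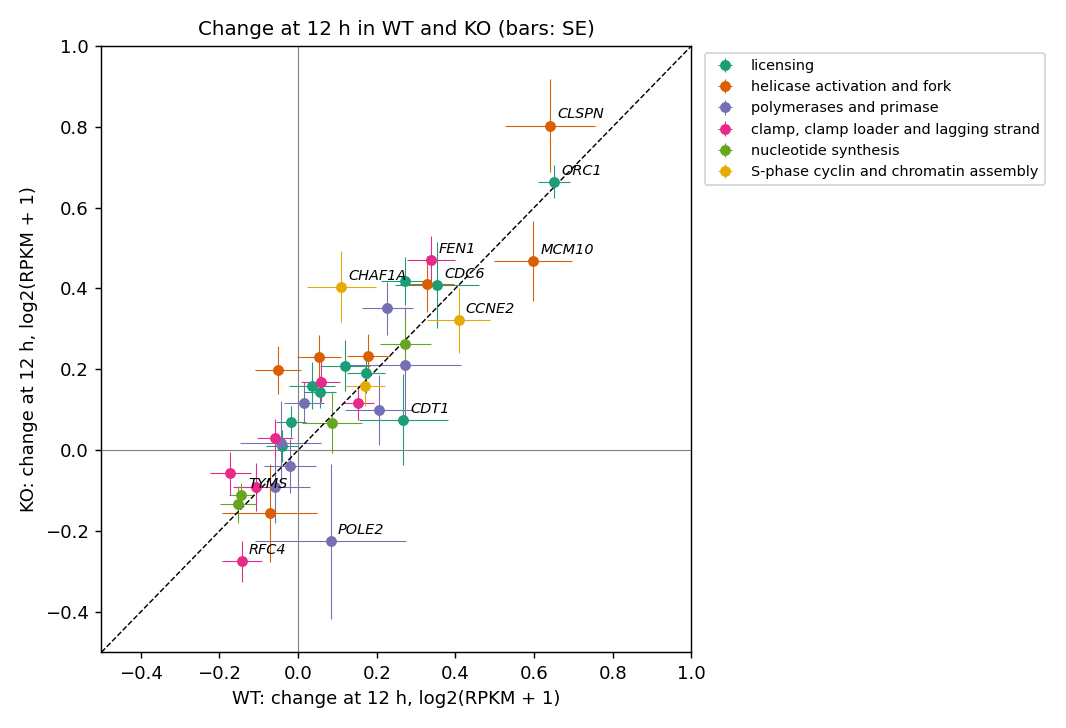
Change in log2(RPKM + 1) at 12 h against untreated cells in WT (horizontal) and in KO (vertical) for the 39 genes, coloured by role, with SE bars and a dashed line where both are equal. CLSPN and ORC1 are farthest from 0 in both, and RFC4 and TYMS are below 0 in both.

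Differences between KO and WT were small at each time. In untreated cells, limma called 0 of the 39 genes, while 4.89% of all genes were called. The differences ran from -0.18 (FEN1) to 0.20 (MCM10). An unadjusted limma p under 0.05 was found for 3 of the 39. The share of all genes under that threshold is not given here, so nothing is read from this count. Without KO 48 h replicate 3, 1 gene was called. At 12 h, 3 were higher in KO, against 1.6% of all genes, and the median difference was 0.06. MCM6 was at 38.75, 40.14 and 39.93 RPKM in WT at 12 h and at 45.08, 43.24 and 44.12 in KO (0.15 ± 0.04, limma adjusted p = 0.0359). MCM7 was at 99.57, 102.65 and 108.37 in WT and at 113.01, 121.2 and 114.85 in KO (0.17 ± 0.04, limma adjusted p = 0.0279). RFC2, a clamp loader subunit, was at 30.69, 32.43 and 30.97 in WT and at 35.41, 35.2 and 36.85 in KO (0.19 ± 0.05, limma adjusted p = 0.0321).

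In untreated cells and at 48 h the same 3 genes had smaller differences in the same direction, none of them called. MCM6 was at 41.01, 40.25 and 39.08 RPKM in WT without interferon and at 41.3, 43.75 and 41.02 in KO, a difference of 0.07 ± 0.04. MCM7 was at 106.13, 105.64 and 107.75 in WT and at 116.34, 114.35 and 115.78 in KO, a difference of 0.12 ± 0.04. RFC2 was at 32.81, 33.39 and 31.93 against 36.13, 33.63 and 35.45, a difference of 0.10 ± 0.05. All 3 KO libraries were above all 3 WT libraries in each case, for MCM6 by only 0.01 RPKM (41.02 against 41.01). Full separation of 3 against 3 libraries has an exact permutation p of 0.1. It was seen, in either direction, for 5 of the 39 genes in untreated cells, and its share over all genes was not counted. At 48 h MCM6 was at 38.02, 36.06 and 37.78 in WT and at 39.44, 37.19 and 38.03 in KO, a difference of 0.04 ± 0.04 with overlapping libraries. MCM7 was at 101.56, 94.37 and 101.09 against 104.66, 109.76 and 102.64, a difference of 0.09 ± 0.04. RFC2 was at 35.26, 32.25 and 31.17 against 37.06, 35.64 and 36.23, a difference of 0.14 ± 0.05. For MCM7 and RFC2 the libraries of the genotypes did not overlap at 48 h, as for 11 of the 39 genes in either direction. None of the 3 calls held in all alternative settings: MCM6 lost it in 10 of 25, RFC2 in 8 and MCM7 in 7. With WT 12 h replicate 1, KO 12 h replicate 2 or KO 12 h replicate 3 left out no gene was called, with WT 12 h replicate 3 or KO 12 h replicate 1 left out 1 was, and with median-of-ratios scaling MCM7 alone was.

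At 48 h TYMS was lower in KO than in WT by 0.13 ± 0.03 (limma adjusted p = 0.0292), 1 of 39 against 2.16% of all genes. The call was lost in 7 of 25 settings, among them those without WT 48 h replicate 2 or 3 or KO 48 h replicate 2 or 3, and 2 genes were called without WT 48 h replicate 1 or KO 0 h replicate 1. The response to interferon itself was compared between genotypes by the interaction term. None of the 39 genes passed at 12 h or 48 h by limma, where 0.0753% and 0.0828% of all genes did; 3 and 2 genes had an unadjusted p under 0.05, and the smallest adjusted p was 0.679 and 0.76. The 3 at 12 h were CHAF1A (0.29, 95% interval 0.03 to 0.56), CDC45 (0.25, 0.07 to 0.43) and GINS2 (0.18, 0.01 to 0.34), each higher in KO. The 2 at 48 h were GINS1 (-0.20, -0.36 to -0.04) and PCNA (-0.14, -0.27 to -0.02). These genes were picked by their unadjusted p, so their intervals, also unadjusted, exclude 0 by that choice and are no support for a difference. The share of all genes under this unadjusted threshold is not given here. The intervals leave room for differences of that size, and 35 of the 39 genes had an interval within 0.5 of 0 at each time. The 7 genes called in KO alone at 12 h are therefore not shown to respond differently between genotypes.

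Other genes of replication and the cell cycle were read from lists of known members. The shares of all genes to read these counts against are, at 12 h, 15.1% higher and 29.8% lower in WT and 16% and 32.8% in KO, and with median-of-ratios scaling 21.8% and 20.4% in WT and 23.8% and 22.9% in KO. Of 33 further replication factors, the WT cells had 7 rises (21.2%) and 6 falls (18.2%) at 12 h and the KO cells 7 (21.2%) and 4 (12.1%); with median-of-ratios scaling 11 rose and 2 fell in each. Those with the biggest changes in WT were POLD4, the smallest polymerase delta subunit, from 23.1 ± 2.3 to 14.7 ± 1.94 RPKM (SD, n = 3; change -0.62, limma adjusted p = 0.00371), and RPA3, of the single-strand binding complex, from 60.4 ± 1.61 to 46.3 ± 4.01 (-0.38). TIPIN, a fork protection factor, rose by 0.29, as did DNA2, a nuclease-helicase. CTC1, of the telomere replication complex, was higher in KO than WT at 48 h (0.53, limma adjusted p = 0.0395), at 10.1 ± 2.37 against 6.69 ± 1.47.

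Of 13 further genes of nucleotide supply, WT cells had 2 rises and 2 falls at 12 h (15.4% each, so the rises were near the share of all genes; 4 and 2 with median-of-ratios scaling), KO cells 2 and 3 (3 and 3 when scaled). SAMHD1, which breaks down deoxynucleotides, rose most, from 4.28 ± 0.21 to 85.3 ± 3.52 RPKM in WT (4.03 ± 0.06, limma adjusted p = 2.92e-18) and from 3.74 ± 0.34 to 78.9 ± 2.23 in KO (4.08 ± 0.06). It was still at 45.4 ± 1.93 and 40.9 ± 1.43 at 48 h. RRM2B, the ribonucleotide reductase subunit used outside S phase, fell by 0.54 in WT and 0.71 in KO at 12 h and was at 47.1 ± 3.8 RPKM in WT at 48 h, against 47.3 ± 3.24 untreated. IMPDH2, of guanine nucleotide synthesis, fell by 0.36 and CTPS1, of cytidine nucleotide synthesis, rose by 0.21 in WT. DCK, deoxycytidine kinase, was higher in untreated KO by 0.22 (limma adjusted p = 0.0457), a call lost with median-of-ratios scaling (0.20, 0.0759).

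Of 20 E2F and RB family regulators, WT cells had 6 rises (30%) and 5 falls (25%) at 12 h and KO cells 7 (35%) and 4 (20%); with median-of-ratios scaling WT had 10 rises and 4 falls, KO 10 and 3 of 19 tested. The E2F partner TFDP2 fell by 0.78, the pocket protein RBL2 by 0.68 and E2F5 by 0.51 in WT, while RBL1 rose by 0.30. RBL2 was at 27.9 ± 1.57 RPKM untreated, 17 ± 1.13 at 12 h and 25.6 ± 0.8 at 48 h. E2F7 was lower in KO than WT untreated (-0.32) and at 48 h (-0.34), and E2F8 was higher in KO at 12 h (0.34), at 3.7 ± 0.24 against 2.7 ± 0.10 RPKM.

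Of 11 cyclins, kinases and CDC25A of the G1/S step, WT cells had 4 rises (36.4%) and 2 falls (18.2%) at 12 h (4 and 1 with median-of-ratios scaling), KO cells 4 and 3 (4 and 2 when scaled). CCND3, cyclin D3, rose from 47.2 ± 1.7 to 81.4 ± 2.63 RPKM in WT (0.77 ± 0.04, limma adjusted p = 3.33e-10), and CCND2 fell from 19.5 ± 0.43 to 12.6 ± 0.06 (-0.59 ± 0.05). CDC25A, the phosphatase that activates CDK2, rose by 0.30 and CCNE1, cyclin E1, by 0.28. CCND1 was lower in KO at every time, by 0.19, 0.21 and 0.20 at 0, 12 and 48 h. In untreated KO, CCND2 (-0.17) and CCND3 (-0.20) were also lower and CCNA2 was higher (0.14; with median-of-ratios scaling 0.12 and not called, limma adjusted p = 0.102).

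Of 6 CDK inhibitors tested, 4 fell at 12 h in WT and 5 in KO, beside 29.8% and 32.8% of all genes, with median changes of -0.41 and -0.40; with median-of-ratios scaling 3 fell in each. Between 12 h and 48 h all 6 rose in WT and 5 in KO (5 and 4 after scaling), beside 24.6% and 27.7% of all genes (16.1% and 19.1% after scaling). CDKN1A, which encodes p21, was in WT at 160 ± 5.44 RPKM untreated, 139 ± 3.93 at 12 h and 185 ± 8.34 at 48 h, while the KO means were 142 ± 8.24, 109 ± 2.6 and 158 ± 4.63. CDKN2D fell by 0.62, CDKN2B by 0.57 and CDKN2C by 0.54 in WT, from untreated levels of 3.38 ± 0.20, 3.64 ± 0.13 and 3.14 ± 0.12 RPKM. CDKN2A, which encodes p16 and ARF, was lower in KO at each time, at 1.62 ± 0.19 against 4.55 ± 0.35 RPKM untreated (-1.08 ± 0.13, limma adjusted p = 0.000101), and CDKN1A was lower in KO by 0.18, 0.36 and 0.22 at 0, 12 and 48 h.

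Of 11 replication checkpoint genes, 2 rose (18.2%) and 3 fell (27.3%) at 12 h in each genotype, near the shares of all genes; with median-of-ratios scaling WT had 4 rises and 3 falls, KO 7 and 1. ATR, the kinase that senses stalled forks, rose by 0.42 in WT (limma adjusted p = 0.00114), and WEE1, a kinase that restrains CDK1 (-0.32), ETAA1, an activator of ATR (-0.31), and RAD17, which loads the checkpoint clamp (-0.30), fell.

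Of 20 mitosis genes, 15 (75%) fell and 2 (10%) rose at 12 h in WT (median -0.19), beside 29.8% and 15.1% of all genes, and the counts in KO were 14 (70%) and 2 (10%; median -0.23), beside 32.8% and 16%. With median-of-ratios scaling WT had 8 falls and 2 rises, beside 20.4% and 21.8% of all genes, and KO 11 and 2, beside 22.9% and 23.8%. The biggest falls in WT were of the kinetochore gene CENPF (39 ± 1.67 to 25.8 ± 2.36 RPKM, -0.58 ± 0.07), the spindle genes NUSAP1 (-0.48) and HMMR (-0.46), and BUB1B of the spindle checkpoint (-0.44). CDC20 and FOXM1, the only 2 that rose, rose by 0.17 and 0.13. At 48 h 6 were still below untreated cells in WT and 9 in KO (5 and 8 after scaling), beside 6.3% and 7.42% of all genes. BUB1 was higher in untreated KO (0.19) and CENPE was higher in KO at 48 h (0.18; with median-of-ratios scaling 0.16 and not called, limma adjusted p = 0.0613).

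**Figure D4:**
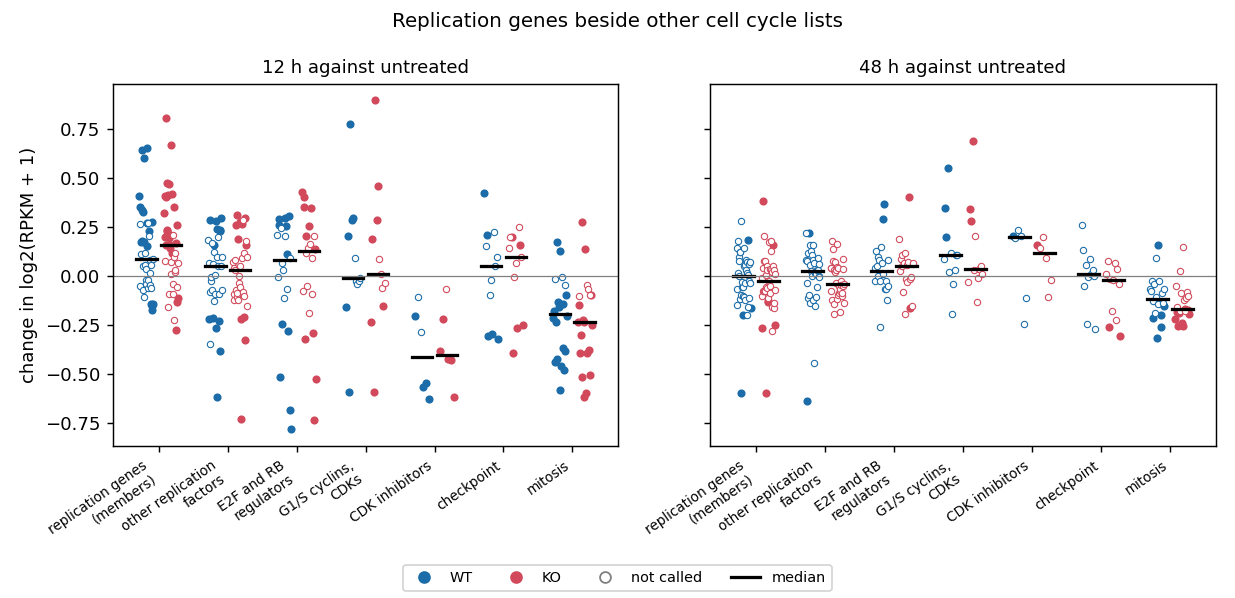
Change in log2(RPKM + 1) against untreated cells at 12 h (left) and 48 h (right), 1 point per gene, for the replication genes and 6 other lists, with blue for WT, red for KO, filled points for genes that passed limma's test and a black bar for each list's median. At 12 h the medians of the replication genes are 0.09 and 0.16, those of the mitosis genes -0.19 and -0.23 and those of the CDK inhibitors -0.41 and -0.40.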

How the data were processed

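Poly(A) RNA libraries from 18 cultures were made with a stranded kit, per the labels' protocols. The authors deposited 1 table of RPKM values per gene and library; per the submitters' processing notes cutadapt, STAR 2.6.1, RSEM 1.3.0, limma 3.50.3 and hg19 were used, with roles, annotation, strand setting and the reads that make up the total not given in the sources used here. RPKM carries no count, so changes were tested on log2(RPKM + 1) computed from the deposited RPKM, which understates changes of low genes. Genes at 1 RPKM or more in at least 3 libraries (13280) entered 1 limma 3.58.1 fit (R 4.3.3) over all 6 groups, with a variance trend, 11 comparisons and Benjamini-Hochberg adjustment per comparison; the test was checked on simulated data. All columns were mapped to samples by title.

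Symbols were matched to 15666 of the table's gene IDs. The members and lists were chosen with earlier results of these data known, and GINS4 and CHAF1A were singled out after their values were seen. Values in every library are given for the 2 called genes per role that changed most in WT at 12 h (failing 2 calls, the largest in size), for genes called between genotypes or against the majority, and for the highest and lowest mean; list genes named are up to 4 called ones that changed most in WT at 12 h and those called between genotypes. Alternatives were a pseudocount of 0.1, no filter, a mean of at least 5 RPKM, scaling by the median of ratios, fitting the compared libraries alone, no variance trend, a replicate block and leaving out each library.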

Additional observations from a re-analysis of the deposited data

How the results depend on the processing

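Of 429 changes (39 genes in 11 comparisons), 389 kept their side of the threshold with median-of-ratios scaling and 402 in fits on the compared libraries alone. This number was 420 with the replicate block and 420 without a variance trend. It was 427 with a mean of at least 5 RPKM, 427 with no filter and 429 with a pseudocount of 0.1. No called change turned its sign in any of the 25 alternatives, while the signs of changes that were not called were not compared. With scaling, the median change was 0.18 in WT and 0.261 in KO at 12 h, and -0.209 and -0.297 from 12 h to 48 h, 24 genes were called from 12 h to 48 h in WT, and 1 between KO and WT at 12 h. In fits on the compared libraries alone 2 genes were called in KO at 48 h, and 0 between KO and WT at 12 h and 0 at 48 h; without a variance trend these last counts were 1 and 0. Leaving out 1 library gave these ranges of calls: 14 to 19 and 20 to 24 at 12 h in WT and KO, 2 to 4 and 2 to 8 at 48 h, 9 to 16 and 23 to 28 from 12 h to 48 h, 0 to 1, 0 to 3 and 0 to 2 between KO and WT at 0, 12 and 48 h, and 0 to 0 for both interactions. The ranges of the median change were 0.068 to 0.128 and 0.124 to 0.163 at 12 h in WT and KO, -0.043 to -0.001 and -0.061 to -0.01 at 48 h, -0.149 to -0.105 and -0.223 to -0.188 from 12 h to 48 h, -0.005 to 0.02, 0.039 to 0.077 and -0.037 to 0.025 between KO and WT at 0, 12 and 48 h, and 0.018 to 0.06 and -0.028 to 0.027 for the interactions. Where a group was left with 2 libraries the fit still took its spread from all groups. The cause of these shifts was not tested. Samples that share a replicate number did not deviate together (correlations from -0.10 to 0.16, median -0.01, over 45 pairs, against -0.11 to 0.14, median 0.01, over 90 other pairs), so the numbers are not taken as pairs; with the replicate block 0 genes were called between KO and WT at 12 h and 0 at 48 h. The table gives no depth, so no counting error could be attached to a value.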
